A study of Mus musculus with 4 samples.

Results

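The 32 stromal extracellular matrix genes described here were taken by name from the deposited gene count table, which lists 24411 gene symbols, and all 32 were found in it. They hold the interstitial collagens, the small proteoglycans, elastic fibre proteins, adhesive glycoproteins and the enzymes that fold, cross-link or degrade them. The tissue was the sublingual gland, one of the paired salivary glands, whose acini secrete mucus, taken from female C57BL/6J mice. RNA was sequenced from glands of mice aged 32 weeks (2 libraries, replicates 3 and 4) and 8 weeks (2 libraries, replicates 1 and 2). Mice of both ages carried the same genotype, Nkx2.3-/-, a loss of both copies of a homeobox gene, so every value below is from a knockout gland and no gland with intact Nkx2-3 was analysed here. The labels do not say whether libraries came from separate mice or from pooled glands, and p-values therefore measure only the spread between these libraries, which may be technical.

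The interstitial matrix of a gland fills the capsule, the septa between lobules and the thin sheath around acini, ducts and vessels, and fibroblasts make most of it. Fibrillar collagens are folded as triple helices in the endoplasmic reticulum with the help of prolyl hydroxylases and a dedicated chaperone, trimmed outside the cell and cross-linked by lysyl oxidases. Small leucine-rich proteoglycans coat the fibrils, elastic fibres form on fibrillin scaffolds, and matrix metalloproteinases and their inhibitors set how fast the network is replaced. Matrix build-up is a known feature of ageing and fibrotic salivary glands. In whole-gland RNA, fewer fibroblasts and less RNA per fibroblast cannot be told apart.

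Libraries held 16484772 and 16111122 counts at 32 weeks and 12925869 and 14265485 counts at 8 weeks. The matrix genes together took 13041 and 12155 counts at 32 weeks and 9717 and 10945 counts at 8 weeks. As a share of each library that was 0.0791% and 0.0754% at 32 weeks, against 0.0752% and 0.0767% at 8 weeks, with 95% Wilson intervals between 0.0737% and 0.0805% over the 4 libraries, which cover counting error only. Nkx2-3 itself had 21 and 29 counts at 32 weeks and 31 and 28 counts at 8 weeks, and the sources used here do not say which part of the gene was deleted. Genes of sublingual acinar cells (Muc19, Smgc, Dcpp1, Aqp5, Lman1l and Galnt12) summed to 100395 and 171080 CPM (counts scaled to library size with TMM factors) at 32 weeks and 175445 and 120680 CPM at 8 weeks, while 5 skeletal muscle genes summed to at most 6.63 CPM and 5 cartilage and bone genes to at most 0.116 CPM in a library. Smgc supplied much of the acinar sum, at 41973 and 125863 CPM in 32-week libraries, against 142077 and 73277 CPM in 8-week libraries. Fold changes of 32 over 8 weeks were positive in 5 of the 6 acinar genes. The libraries did not group by age. Across genes, Pearson's r of log2 CPM was 0.983 for the pair aged 32 weeks and 0.962 for the pair aged 8 weeks, and it was highest, at 0.987, between 32-week replicate 4 and 8-week replicate 1. Genes are not independent replicates, so this r is a description.

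No matrix gene passed the test of age. The low-count filter kept 30 of the 32, and with edgeR's quasi-likelihood test 0 of these 30 reached an adjusted p of 0.05, as did 0 of the 12810 genes tested (0%). At an unadjusted p under 0.05 the members numbered 0 of 30, against 1.36% of all genes. DESeq2 called 0 members and 0.0166% of all genes, and limma-voom called 0 members and 0 genes. Fold changes were positive in 22 members (73.3%) and negative in 8, where 48.3% of all genes were positive, and the median log2 fold change of 32 over 8 weeks was 0.12 for the members and -0.01 for all genes tested. With libraries scaled to their total counts alone the same medians were 0.03 and -0.10. The choice of members was made with earlier results of these data known, so this lean is a description of the list. Every one of the 30 intervals contained 0, and the median 95% interval reached 0.67 on the log2 scale to either side, a 1.59-fold change. For 20 members the interval lay within a log2 change of 1 in both directions. With 2 libraries against 2, an exact permutation test of any single gene can go no lower than p = 0.333.

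**Figure D1:**
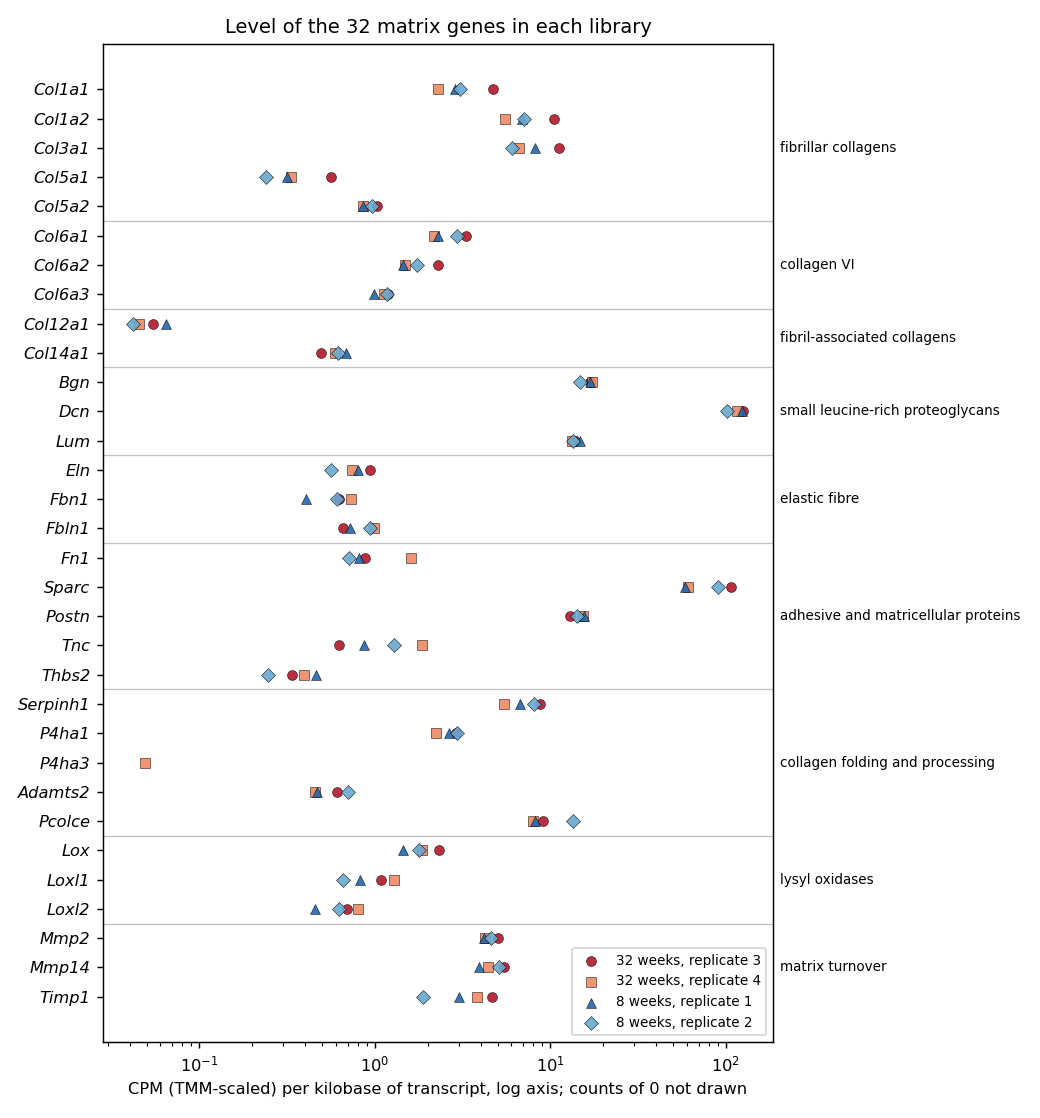
Each row is a matrix gene, grouped by role, and each symbol is a library. The horizontal log axis gives TMM-scaled CPM per kilobase of the longest coding transcript. Dcn and Sparc stand at the top, between 58.7 and 125 CPM per kilobase, while P4ha3 had counts in 32-week replicate 4 alone.

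Levels differed widely between the genes and were compared per kilobase of the longest protein-coding transcript. Decorin (Dcn), which binds collagen fibrils and growth factors, was the most abundant member at a mean of 116 CPM per kilobase over the 4 libraries, followed by Sparc, a collagen-binding glycoprotein, at 79.3 CPM per kilobase. Biglycan (Bgn), periostin (Postn) and lumican (Lum) came next at 16.5, 14.6 and 13.9 CPM per kilobase. All fibrillar collagens lay below these, with Col3a1 at 8.00, Col1a2 at 7.51 and Col1a1 at 3.23 CPM per kilobase. At the low end stood Col12a1, a fibril-associated collagen, with 9 and 9 counts at 32 weeks and 10 and 7 counts at 8 weeks, and P4ha3, a prolyl hydroxylase subunit, with 0 and 2 counts at 32 weeks and 0 and 0 counts at 8 weeks. Both were removed by the low-count filter. A count of 0 allows up to 3 counts, or 0.207 CPM in 32-week replicate 3, with 0.221 and 0.207 CPM for the younger glands, so no age difference of P4ha3 was detectable at this depth.

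The major fibrillar collagens were high in a single 32-week library. Col1a1, the alpha 1 chain of type I collagen (NCBIM37 chr11:94797538-94814356, plus strand), stood at 28.1 and 13.6 CPM in 32-week libraries, against 17.05 and 18.02 CPM in 8-week libraries. Col1a2, its alpha 2 chain (chr6:4454814-4491543, plus strand), had 56.2 and 29.7 CPM in 32-week libraries, against 36.7 and 38.0 CPM in 8-week libraries. Col3a1, the chain of type III collagen that forms fine reticular fibres (chr1:45368383-45406551, plus strand), had 62.0 and 36.9 CPM in 32-week libraries, against 45.5 and 33.7 CPM in 8-week libraries. In all 3 genes replicate 3 was the highest library, and for the type I chains replicate 4, of the same age, was the lowest. The 8-week values lay inside the 32-week range for both type I chains. Their log2 fold changes were 0.24 (SE 0.33), 0.20 (SE 0.30) and 0.32 (SE 0.29) in the order named, each with an edgeR adjusted p of 0.999. Without replicate 3 they turned negative, at -0.36, -0.32 and -0.09, and without replicate 4 they were 0.68, 0.59 and 0.65.

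Type V collagen sets the width of type I fibrils and is made in small amounts. Col5a1 (chr2:27741945-27895034) had 4.70 and 2.79 CPM in 32-week libraries, against 2.66 and 2.002 CPM in 8-week libraries, from 68 and 48 counts and from 36 and 29 counts. Both 32-week libraries lay above both 8-week libraries, replicate 4 by a narrow margin, and the log2 fold change was 0.68 (SE 0.38, 95% interval -0.22 to 1.58, edgeR adjusted p = 0.999). Without replicate 3 it was 0.27. Col5a2, the partner chain, lies 24614 bases from Col3a1 on the opposite strand and was flat, with 6.84 and 5.64 CPM in 32-week libraries, against 5.68 and 6.35 CPM in 8-week libraries, giving a log2 fold change of 0.05 (SE 0.26). Its neighbour Col3a1 varied 1.84-fold between the highest and lowest library and Col5a2 1.21-fold.

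Promoter windows are shown for Col1a2, Col3a1 and Sparc, which were all highest in 32-week replicate 3, and for Bgn, which varied little. They are RefSeq windows on GRCm38.p6 from 250 bases before to 30 bases after the annotated start, written 5′ to 3′ on the gene's strand. Of the 32 members, 20 had a window in the table. Capitals mark the CCAAT box (CCAAT or ATTGG), the TATA sequence (TATAAA or TTTATA) and the GC box (GGGCGG or CCGCCC), each searched on both strands, and in Bgn the last pair of GC boxes overlap. The windows are chr6:4505368-4505647 (plus strand) for Col1a2, chr1:45311288-45311567 (plus strand) for Col3a1, chr11:55420051-55420330 (minus strand) for Sparc and chrX:73483351-73483630 (plus strand) for Bgn.
Col1a2: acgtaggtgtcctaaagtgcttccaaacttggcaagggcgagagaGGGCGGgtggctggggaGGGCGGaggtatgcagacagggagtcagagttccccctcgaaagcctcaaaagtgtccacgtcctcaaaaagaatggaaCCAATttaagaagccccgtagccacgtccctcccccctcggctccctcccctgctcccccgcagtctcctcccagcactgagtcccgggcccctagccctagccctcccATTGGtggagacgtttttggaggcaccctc
Col3a1: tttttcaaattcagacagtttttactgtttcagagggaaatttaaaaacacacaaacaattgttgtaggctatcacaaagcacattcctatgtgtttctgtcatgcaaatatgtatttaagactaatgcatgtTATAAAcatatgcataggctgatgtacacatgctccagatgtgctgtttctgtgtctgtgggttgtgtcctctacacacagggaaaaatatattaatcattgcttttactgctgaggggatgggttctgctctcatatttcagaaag
Sparc: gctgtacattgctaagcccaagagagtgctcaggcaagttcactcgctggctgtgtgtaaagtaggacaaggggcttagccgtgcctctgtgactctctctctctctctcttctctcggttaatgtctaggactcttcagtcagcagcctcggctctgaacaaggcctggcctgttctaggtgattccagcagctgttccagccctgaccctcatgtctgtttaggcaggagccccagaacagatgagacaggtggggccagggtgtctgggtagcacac
Bgn: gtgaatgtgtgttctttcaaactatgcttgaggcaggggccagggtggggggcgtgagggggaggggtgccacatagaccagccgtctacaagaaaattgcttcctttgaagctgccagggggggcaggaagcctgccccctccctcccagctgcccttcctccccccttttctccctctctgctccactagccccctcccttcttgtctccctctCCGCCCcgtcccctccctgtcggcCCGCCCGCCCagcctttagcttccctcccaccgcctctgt

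The 3 motifs were spread unevenly over the windows. Col1a2 held 2 GC boxes and 2 CCAAT boxes, the first CCAAT box starting 109 bases before the annotated start. The second, read as ATTGG, began at the annotated start itself. Col3a1 held a TATA sequence 117 bases before the start, Sparc held none of the 3 motifs, and Bgn held 3 GC boxes. Over the 20 members with a window, the CCAAT box was present in 5, the TATA sequence in 4 and the GC box in 14. Among all 32851 windows of the same length in the table, 36.1% held a CCAAT box, 13.1% a TATA sequence and 34.7% a GC box. Those shares are of single windows, while a member was counted if any of its windows held the motif, so the units differ. A match describes letters in a window and is no evidence of binding.

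Collagen VI forms beaded filaments that link cells to the fibrils, and its 3 chains showed small differences. Col6a1 had 13.6 and 8.90 CPM in 32-week libraries, against 9.45 and 12.0 CPM in 8-week libraries. Col6a2, which lies 85161 bases from Col6a1 on chromosome 10, had 10.6 and 6.92 CPM in 32-week libraries, against 6.72 and 8.08 CPM in 8-week libraries. Col6a3, the long chain, had 10.4 and 9.83 CPM in 32-week libraries, against 8.63 and 10.3 CPM in 8-week libraries. With TMM scaling replicate 3 was highest in each, and the ages overlapped in each. Scaled to total counts, 8-week replicate 2 was highest for Col6a1, at 12.2 CPM, and 32-week replicate 4 for Col6a3, at 10.5 CPM. Their log2 fold changes were 0.06, 0.24 and 0.09, and that of Col6a1 was -0.04 with total counts only. Among the fibril-associated collagens, Col14a1 was the only member with both 32-week libraries below both 8-week libraries, at 3.18 and 3.84 CPM against 4.43 and 4.005 CPM (log2 fold change -0.26, SE 0.30, edgeR adjusted p = 0.999). That is 1 of 30 members (3.33%), where 14.2% of all genes tested had this order, and Col14a1 did not keep it when libraries were scaled to total counts. Under that scaling P4ha1 and Pcolce had this order instead, as did 18.4% of all genes.

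The small leucine-rich proteoglycans varied little between libraries. Dcn (chr10:96942245-96980777) had 219 and 204 CPM in 32-week libraries, against 218 and 177 CPM in 8-week libraries, with a log2 fold change of 0.10 (SE 0.22, 95% interval -0.42 to 0.62). Lum, which helps to space collagen fibrils and lies 47357 bases downstream of Dcn on the same strand, had 28.5 and 27.6 CPM in 32-week libraries, against 30.8 and 28.1 CPM in 8-week libraries, giving a log2 fold change of -0.07 (SE 0.18). Bgn (chrX:70728941-70741272) had 40.1 and 41.2 CPM in 32-week libraries, against 40.1 and 35.2 CPM in 8-week libraries, giving a log2 fold change of 0.11 (SE 0.19). The ratio of the highest to the lowest library was 1.24 for Dcn, 1.17 for Bgn and 1.12 for Lum, against a median of 1.60 over the 30 members and 1.47 over all tested genes with counts in every library. In 7 members the ratio was 1.24 or less, and the others of these were Mmp2, Col6a3, Postn and Col5a2. Scaled to total counts, the ratio was 1.27 for Dcn, 1.249 for Bgn and 1.29 for Lum, above Mmp2 at 1.06 and Col5a2 at 1.08, with a median of 1.503 over the members.

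**Figure D2:**
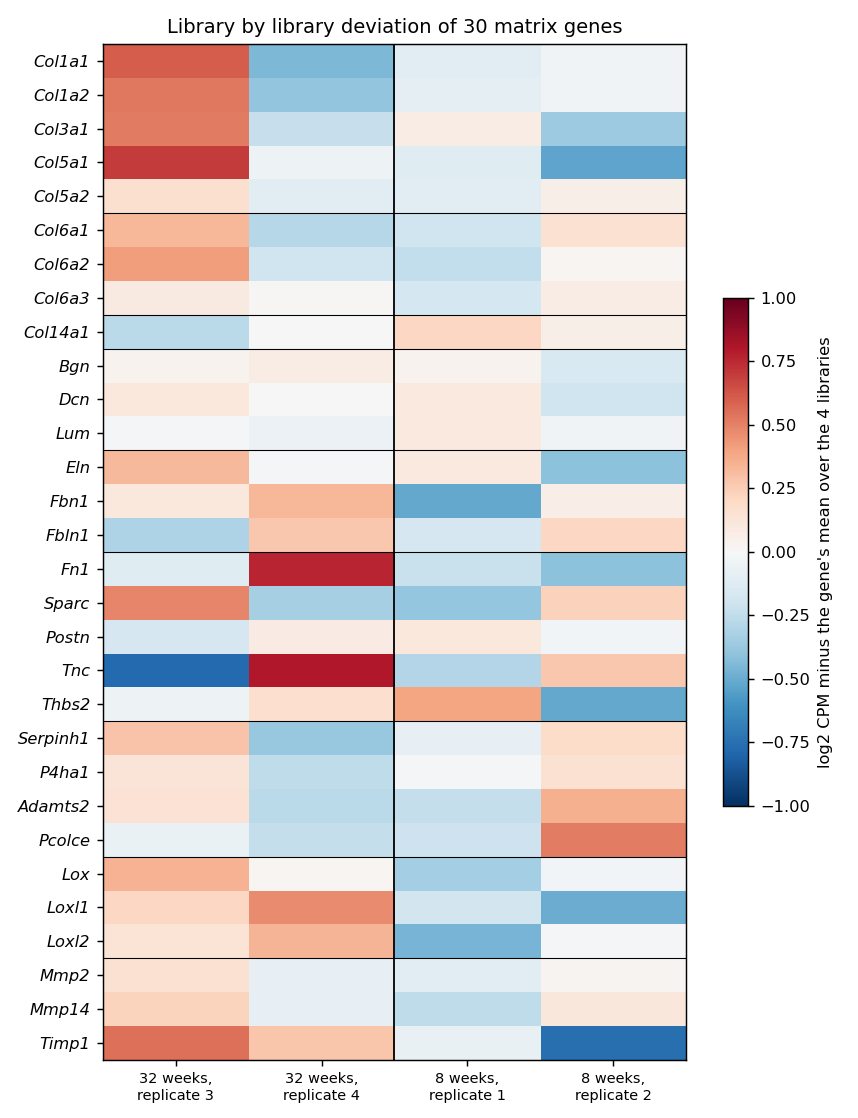
Each cell gives the log2 CPM of a gene in a library minus that gene's mean over the 4 libraries, with the 32-week libraries in the left columns and the 8-week libraries in the right columns. Most collagens are red in 32-week replicate 3 and blue or pale in 32-week replicate 4, Fn1 and Tnc are red in replicate 4, and Bgn, Dcn and Lum are pale throughout.

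Elastic fibre genes were low and did not move as a group. Elastin (Eln), the core protein, had 2.42 and 1.92 CPM in 32-week libraries, against 2.07 and 1.45 CPM in 8-week libraries, from 21 to 35 counts a library. Fibrillin 1 (Fbn1), the microfibril scaffold, had 7.47 and 8.72 CPM in 32-week libraries, against 4.87 and 7.25 CPM in 8-week libraries, which did not overlap between the ages (log2 fold change 0.42, SE 0.28, edgeR adjusted p = 0.999). Leaving out 8-week replicate 1 gave 0.16, and leaving out 8-week replicate 2 gave 0.74. Scaled to total counts, Fbn1 overlapped, and it shares exonic bases with Gm9913 on the opposite strand, from which its reads cannot be told apart without strand information. Col1a1, Col5a1, Fn1, Tnc and Pcolce also share exonic bases with other annotated genes, so their counts are uncertain to that extent. Fibulin 1 (Fbln1), which binds elastin and fibronectin, had 2.42 and 3.61 CPM in 32-week libraries, against 2.66 and 3.45 CPM in 8-week libraries.

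Among the adhesive and matricellular proteins, fibronectin and tenascin C were high in the other 32-week library. Fibronectin (Fn1, chr1:71632094-71699774), on which many matrix proteins assemble, had 7.26 and 13.4 CPM in 32-week libraries, against 6.79 and 5.94 CPM in 8-week libraries. Replicate 4 stood above the rest, with an exact 95% Poisson interval of 11.7 to 15.2 CPM, while the interval of replicate 3, 5.94 to 8.79 CPM, held the 8-week values. Its log2 fold change was 0.70 (SE 0.32, 95% interval -0.05 to 1.46, edgeR adjusted p = 0.999), and it was 0.19 without replicate 4. Tenascin C (Tnc, chr4:63620819-63681760), an anti-adhesive glycoprotein of remodelling tissue, had 4.42 and 13.2 CPM at 32 weeks, the lowest and the highest of the 4 libraries, and 6.20 and 9.11 CPM at 8 weeks. Of all 30 members Tnc varied most, 2.98-fold, and its log2 fold change of 0.21 was -0.79 without replicate 4 and 0.79 without replicate 3.

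Sparc (chr11:55208002-55233582) had 247 and 140 CPM in 32-week libraries, against 135 and 207 CPM in 8-week libraries, so each age held a high and a low library (log2 fold change 0.18, SE 0.34). Periostin (Postn), which binds collagen and lysyl oxidase complexes, was even, with 41.5 and 49.3 CPM in 32-week libraries, against 50.03 and 45.6 CPM in 8-week libraries, giving a log2 fold change of -0.07 (SE 0.20). Thrombospondin 2 (Thbs2), a matricellular inhibitor of vessel growth, had 21 to 40 counts a library and a log2 fold change of 0.06 (SE 0.42).

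Genes for collagen folding and processing had negative fold changes in all 4 tested members, none past the threshold. Serpinh1, the collagen chaperone Hsp47, had 20.7 and 13.1 CPM in 32-week libraries, against 16.1 and 19.4 CPM in 8-week libraries. P4ha1, the catalytic subunit of prolyl hydroxylase, had 11.8 and 9.02 CPM in 32-week libraries, against 10.6 and 11.9 CPM in 8-week libraries. Pcolce, which enhances cleavage of the collagen C-propeptide, had 14.7 and 13.03 CPM in 32-week libraries, against 13.4 and 22.0 CPM in 8-week libraries. The high value was 8-week replicate 2 alone, and the log2 fold change of -0.35 (SE 0.27) was 0.06 without it. Adamts2, which removes the N-propeptide, had 4.42 and 3.32 CPM in 32-week libraries, against 3.39 and 5.11 CPM in 8-week libraries. The negative direction of this group did not hold with libraries left out: without 8-week replicate 2 its median log2 fold change was 0.07 and without 32-week replicate 4 it was 0.06, against -0.13 with all 4.

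The listed lysyl oxidases, which cross-link collagen and elastin, were the only role in which every member had both 32-week libraries above both 8-week libraries. Of all genes tested, 14.4% had this order. Loxl3 and Loxl4, taken under the other collagen biosynthesis genes, overlapped between the ages, with log2 fold changes of -0.02 (SE 0.45) and -0.39 (SE 0.54). Lox had 10.4 and 8.26 CPM in 32-week libraries, against 6.42 and 8.01 CPM in 8-week libraries. Loxl1, which is needed for elastic fibre upkeep (chr9:58135530-58161019, minus strand), had 3.59 and 4.30 CPM in 32-week libraries, against 2.73 and 2.21 CPM in 8-week libraries, from 52 and 74 counts and from 37 and 32 counts. Loxl2, which cross-links basement membrane collagen as well (chr14:70008978-70095640), had 3.59 and 4.13 CPM in 32-week libraries, against 2.36 and 3.25 CPM in 8-week libraries. Log2 fold changes were 0.37 (SE 0.25) for Lox, 0.68 (SE 0.32) for Loxl1 and 0.46 (SE 0.33) for Loxl2, each with an edgeR adjusted p of 0.999. Each stayed positive with any library left out, from 0.20 for Lox to 0.84 for Loxl1. Scaled to total counts, Lox and Loxl1 still did not overlap between the ages and Loxl2 did, at 3.15 and 4.41 CPM in 32-week libraries, against 2.48 and 3.29 CPM in 8-week libraries.

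**Figure D3:**
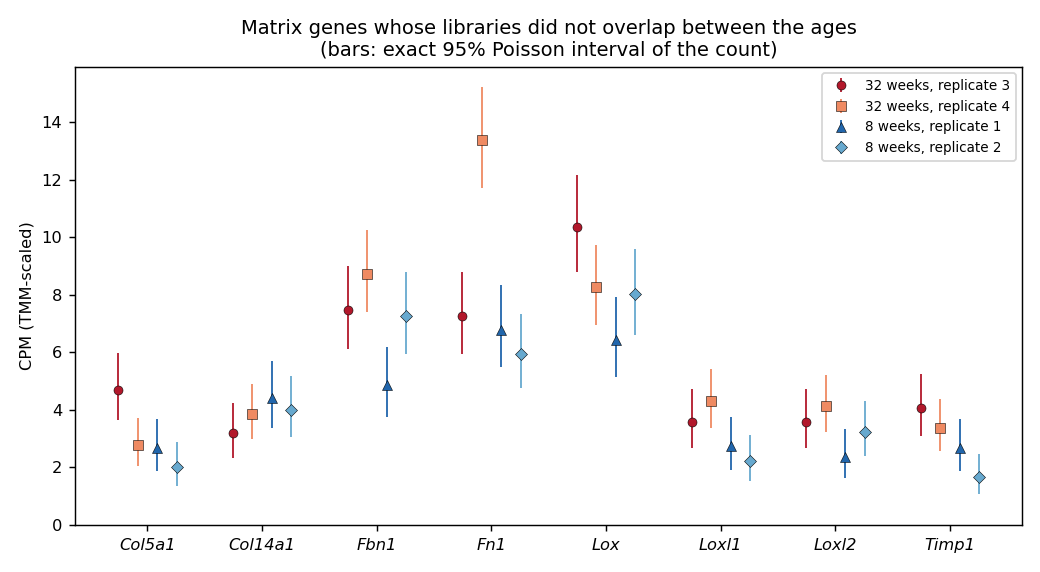
TMM-scaled CPM of the 8 matrix genes whose libraries did not overlap between the ages, with exact 95% Poisson intervals of each count and the 32-week libraries on the left of each gene. For Col14a1 the 32-week libraries are the lower ones. In each of the 8 genes the intervals of the nearest libraries from different ages overlap, as for Lox at 8.26 CPM in 32-week replicate 4 and 8.01 CPM in 8-week replicate 2.

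Of the 3 matrix turnover members, Mmp2 and Mmp14 overlapped between the ages and the inhibitor Timp1 did not. Timp2 and Timp3, more abundant inhibitors from the other lists, overlapped, with log2 fold changes of 0.29 (SE 0.29) and -0.02 (SE 0.20). Timp4 had 2 to 6 counts a library and was not tested. Mmp2, a gelatinase, had 15.2 and 12.9 CPM in 32-week libraries, against 12.7 and 13.9 CPM in 8-week libraries. Mmp14, the membrane-bound protease that activates it, had 14.2 and 11.5 CPM in 32-week libraries, against 10.2 and 13.2 CPM in 8-week libraries. Timp1, a secreted metalloproteinase inhibitor (chrX:20447292-20451861, plus strand), had 4.08 and 3.37 CPM in 32-week libraries, against 2.66 and 1.66 CPM in 8-week libraries, from 59 and 58 counts and from 36 and 24 counts. Both of its 32-week libraries lay above both 8-week libraries, under TMM and under total counts, as for 14.4% and 5.43% of all genes tested. Its log2 fold change of 0.79 (SE 0.36, 95% interval -0.06 to 1.64) was the largest of the 30 members with all 4 libraries, but the edgeR adjusted p was 0.999. Leaving out 8-week replicate 1 raised it to 1.16. Leaving out 8-week replicate 2 gave 0.49, below several members, among them Fbn1 at 0.74 and Loxl2 at 0.72. Leaving out 32-week replicate 3 gave 0.66, below members such as Fn1 at 1.08 and Tnc at 0.79. Within the libraries, Timp1 per kilobase was 0.923 and 0.899 times Mmp2 at 32 weeks and 0.720 and 0.409 times Mmp2 at 8 weeks, with exact 95% intervals of 0.661 to 1.23 and of 0.256 to 1.04 over the libraries of each age.

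Counted together, 7 members (Col5a1, Fbn1, Fn1, Lox, Loxl1, Loxl2 and Timp1) had both 32-week libraries above both 8-week libraries. That is 23.3% of the 30 tested, where 14.4% of all genes tested had this order. Adding Col14a1, the ages did not overlap in 26.7% of the members and in 28.6% of all genes tested. With total counts only, 4 of the 7 (Col5a1, Lox, Loxl1 and Timp1) kept the order, which 5.43% of all genes then had. All 7 had at most 230 counts in any library. Leaving out 8-week replicate 1, 4 members had an unadjusted p under 0.05, among 21.7% of all genes in that fit, and 0 members passed the adjusted threshold, which 2.15% of all genes did. Those 4 were Fn1, Loxl1, Pcolce and Timp1, and their smallest edgeR adjusted p was 0.0842.

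**Figure D4:**
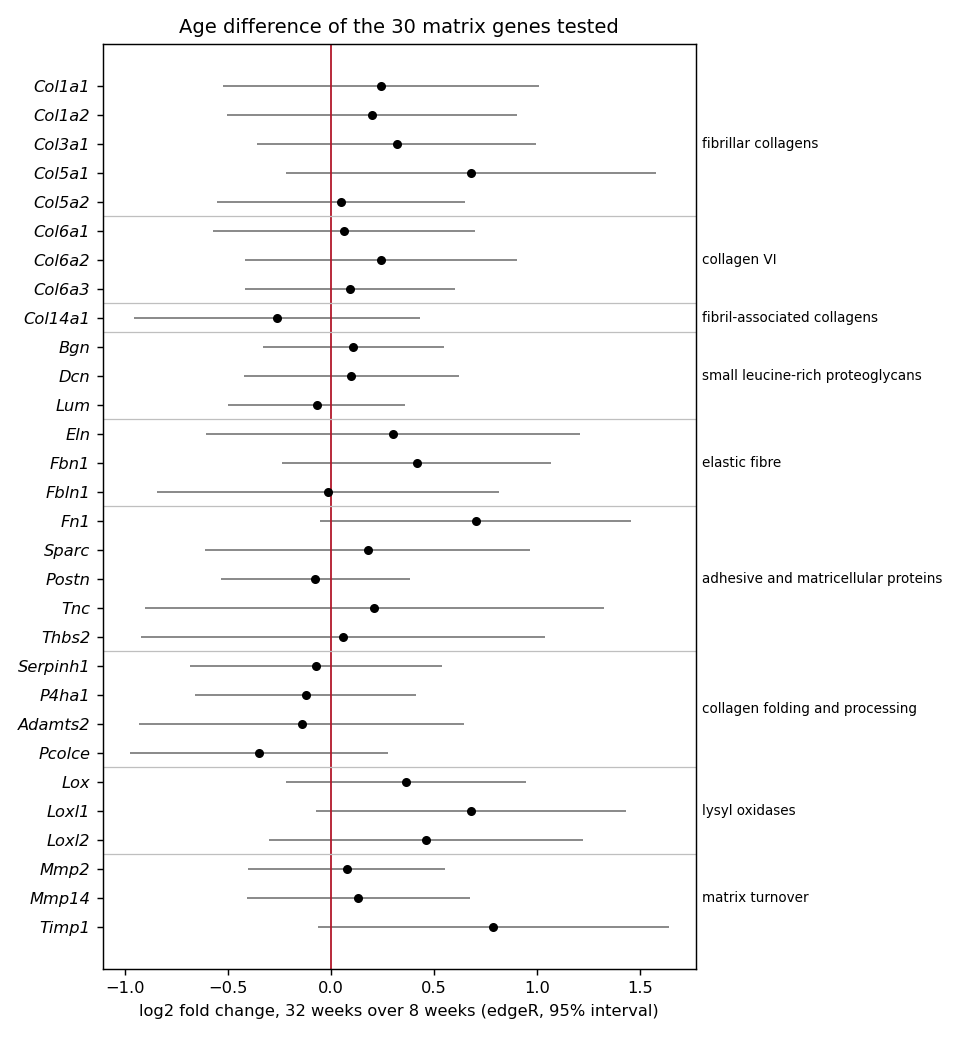
Points are log2 fold changes of 32 over 8 weeks for the 30 matrix genes tested, with bars for the 95% interval of the edgeR model and rows grouped by role. Every interval crosses the line at 0, and the points run from -0.35 for Pcolce to 0.79 for Timp1.

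With TMM scaling, the libraries of 32 weeks stood far apart for most fibrillar and type VI collagens. Replicate 3 was the highest library in 16 of the 30 members, replicate 4 in 7, 8-week replicate 1 in 4 and 8-week replicate 2 in 3. Among all genes tested the same libraries were highest in 19.8%, 20.6%, 24.9% and 34.7%. The count depends on the scaling, since replicate 3 had a TMM factor of 0.878 against 1.07 for replicate 4 and 1.05 and 1.02 at 8 weeks. Scaled to total counts, replicate 3 was highest in 7 of 30 members and replicate 4 in 10, against 4.25% and 30.8% of all genes. Under that scaling Col1a1 still stood at 24.6 and 14.5 CPM in 32-week libraries, against 17.9 and 18.3 CPM in 8-week libraries. In 32-week libraries Col1a2 held 49.3 and 31.7 CPM, Col3a1 54.4 and 39.4 CPM, and Col5a1 4.13 and 2.98 CPM. The type VI chains held 11.95 and 9.50 CPM for Col6a1, 9.34 and 7.39 CPM for Col6a2 and 9.10 and 10.5 CPM for Col6a3. Col5a2 held 6.01 and 6.02 CPM, so replicate 3 did not stand above replicate 4 for Col5a2 or Col6a3. Summed over the 5 fibrillar collagens, TMM-scaled levels were 158 and 88.5 CPM in 32-week libraries, against 108 and 98.1 CPM in 8-week libraries, whereas the 3 proteoglycans summed to 288 and 273 CPM in 32-week libraries, against 289 and 241 CPM in 8-week libraries.

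Ratios within a library do not depend on scaling and showed the same split. Per kilobase, Col1a2 was 0.0843 and 0.0477 times Dcn at 32 weeks and 0.0554 and 0.0705 times Dcn at 8 weeks, with exact 95% intervals of 0.0780 to 0.0911 in replicate 3 and 0.0434 to 0.0524 in replicate 4. Col3a1 was 0.0894 and 0.0570 times Dcn at 32 weeks and 0.0660 and 0.0600 times Dcn at 8 weeks. Sparc was 0.863 and 0.523 times Dcn at 32 weeks and 0.474 and 0.893 times Dcn at 8 weeks, a pairing of libraries across the ages. By contrast Bgn stayed between 0.135 and 0.149 times Dcn in the 4 libraries and Lum between 0.110 and 0.134. Fn1 was 0.0139 times Dcn in 32-week replicate 4 and between 0.0066 and 0.0071 times Dcn in the others.

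**Figure D5:**
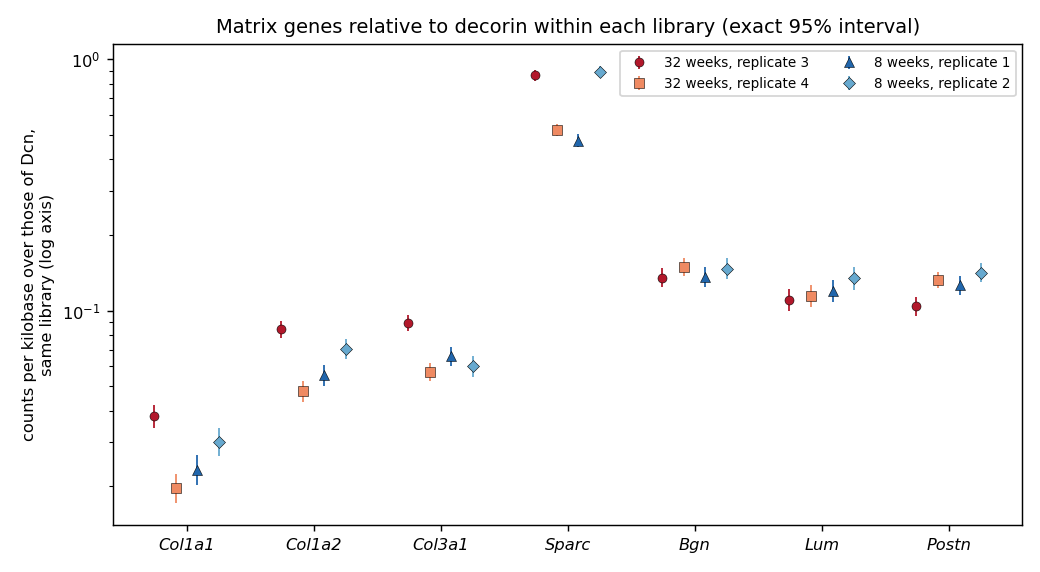
Counts per kilobase of each gene divided by those of Dcn in the same library, on a log axis, with exact 95% binomial intervals and the 32-week libraries on the left of each gene. The type I and III collagens are highest in 32-week replicate 3, Sparc is high in 32-week replicate 3 and 8-week replicate 2, and Bgn lies between 0.135 and 0.149 in every library.

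Chains of the same collagen kept even proportions in some pairs and not in others. Col1a1 was 0.450 and 0.412 times Col1a2 per kilobase at 32 weeks and 0.419 and 0.427 times at 8 weeks, and all 4 exact intervals overlapped, between 0.351 and 0.508. Col6a1 was 1.45 and 1.46 times Col6a2 at 32 weeks and 1.60 and 1.69 times at 8 weeks. Col6a3 was 0.517 and 0.754 times Col6a2 at 32 weeks and 0.683 and 0.676 times at 8 weeks. Col5a1 was 0.541 and 0.390 times Col5a2 at 32 weeks and 0.368 and 0.248 times at 8 weeks, the widest range of these chain pairs. Its exact 95% interval was 0.392 to 0.745 in 32-week replicate 3 and 0.158 to 0.381 in 8-week replicate 2. These came from 68 and 29 Col5a1 counts. Across collagen types, Col3a1 was 2.35 and 2.90 times Col1a1 at 32 weeks and 2.84 and 1.99 times at 8 weeks.

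Beyond the members, the rest of the matrix machinery gave no gene past the threshold. Of 15 other collagens, 12 were tested and 11 had positive fold changes, with a median of 0.39 on the log2 scale, where all genes tested had -0.01. Their summed level was 125 and 86.4 CPM in 32-week libraries, against 76.5 and 75.4 CPM in 8-week libraries, and replicate 3 was again the high library. Col4a1, a basement membrane collagen and the most abundant of them, had 54.9 and 38.9 CPM in 32-week libraries, against 31.3 and 29.8 CPM in 8-week libraries, giving a log2 fold change of 0.62 (SE 0.22, edgeR adjusted p = 0.999). Unlike those of the members, its 95% interval, 0.09 to 1.14, did not contain 0 (edgeR unadjusted p = 0.027). Of all genes tested, 1.36% had an unadjusted p under 0.05. Other collagen biosynthesis genes had 12 positive and 6 negative of 18 tested (median 0.12), led in level by P4hb, the disulfide isomerase subunit of prolyl hydroxylase, at 1023 and 898 CPM in 32-week libraries, against 882 and 1043 CPM in 8-week libraries. Further elastic fibre genes had 7 positive of 11 (median 0.08, most abundant Efemp1), further proteoglycans and glycoproteins 12 of 18 (median 0.05, most abundant Mgp), and other proteases and inhibitors 9 of 15 (median 0.09, most abundant Ctsb). Receptors for matrix had 9 of 10 positive (median 0.24, most abundant Sdc4).

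RNA of the genes listed for signalling by TGF-beta, a strong inducer of collagen genes, was mixed in direction. Activity of the pathway was not measured. Of 21 listed genes 19 were tested, 9 positive and 10 negative, with a median log2 fold change of -0.0019 and none past the threshold. Smad4, the shared signal mediator and the most abundant of them, had 41.6 and 37.4 CPM in 32-week libraries, against 44.9 and 33.4 CPM in 8-week libraries. Ctgf, a matrix-inducing target, had 2.90 and 4.19 CPM in 32-week libraries, against 2.44 and 4.49 CPM in 8-week libraries. Tgfb1 had 0 or 1 counts in each library and was not tested. That is few for a gene made by many cell types, and the deposited table does not show whether its reads were fully counted, so its level is not read here. Itgb6 had a log2 fold change of -0.55 (95% interval -1.03 to -0.08, edgeR unadjusted p = 0.029, adjusted p = 0.999). Ctgf, Itgb6 and Tgfb1 were named after their values were seen.

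No fibroblast marker passed the threshold. The 15 listed genes summed to 167 and 166 CPM in 32-week libraries, against 169 and 173 CPM in 8-week libraries, and 12 were tested, 9 positive and 3 negative (median log2 fold change 0.22). Dpp4 was the most abundant of them, at 60.2 and 60.5 CPM in 32-week libraries, against 73.5 and 79.1 CPM in 8-week libraries. A split without Dpp4 was made after its values were seen. With TMM scaling the other 14 genes summed to 107 and 105 CPM in 32-week libraries, against 95.3 and 94.05 CPM in 8-week libraries. The order of these sums depends on the scaling, since 32-week replicate 3 had a TMM factor of 0.878. Ly6a, named after its values were seen, supplied 49.0 and 46.8 CPM of them in 32-week libraries, against 42.1 and 45.3 CPM in 8-week libraries. Tcf21 had 0 counts in every library, and Twist2 and Lrrc15 had at most 2. Members of the list differed in which library was high, and those named next were chosen after their values were seen. Pdgfrb, a growth factor receptor of fibroblasts and mural cells, had 7.53 and 3.49 CPM in 32-week libraries, against 5.17 and 7.11 CPM in 8-week libraries. Pi16, a marker of fibroblasts around vessels, had 2.77 and 6.46 CPM in 32-week libraries, against 3.91 and 2.49 CPM in 8-week libraries. Their part in the collagen values was not tested.

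Markers of other cell types also differed between libraries of 1 age. Their sums are TMM-scaled, and the order of the mural sums depends on the scaling, since 32-week replicate 3 had a TMM factor of 0.878. Mural cell markers summed to 527 and 613 CPM in 32-week libraries, against 426 and 502 CPM in 8-week libraries, with 6 of 8 positive and Acta2 the most abundant. Acta2, Tagln and Myh11, which myoepithelial cells of the gland also make, supplied 501 and 594 CPM of this in 32-week libraries, against 407 and 473 CPM in 8-week libraries, and the other 5 genes summed to 26.9 and 18.9 CPM in 32-week libraries, against 18.6 and 28.3 CPM in 8-week libraries. Endothelial markers summed to 85.8 and 127 CPM in 32-week libraries, against 75.0 and 94.5 CPM in 8-week libraries, with 8 of 8 positive (median 0.19) and Vwf the most abundant. Macrophage markers, led by Csf1r, summed to 47.8 and 64.4 CPM in 32-week libraries, against 59.3 and 42.4 CPM in 8-week libraries. Schwann cell markers, led by Mbp, summed to 62.2 and 56.9 CPM in 32-week libraries, against 50.5 and 47.3 CPM in 8-week libraries. Adipocyte markers, led by Fabp4, summed to 29.9 and 32.0 CPM in 32-week libraries, against 40.1 and 21.8 CPM in 8-week libraries. Duct markers, led by Klk1, summed to 2252 and 1384 CPM in 32-week libraries, against 2066 and 4434 CPM in 8-week libraries, with 5 of 5 negative (median -0.13). The high sum was that of 8-week replicate 2 alone. Of all genes tested, 48.3% had a positive fold change. No gene of these lists passed the threshold, and their part in the matrix values was not tested.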

How the data were processed

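RNA sequencing libraries of the sublingual gland were grouped by the age in the labels. Per the labels' protocols, frozen glands gave Trizol-extracted RNA for TruSeq libraries. STAR and the build mm9 are named per the submitters' processing notes. Not given in the sources used here are the counting tool, annotation and strand setting. The authors deposited whole-number read counts per gene symbol, not normalized.

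Computed here in R 4.3.3: edgeR 4.0.16's quasi-likelihood test on those counts, TMM scaling, edgeR's own expression filter by age, age as the only term and Benjamini-Hochberg adjustment over 12810 genes (threshold 0.05). DESeq2 1.42.0, limma-voom 3.58.1, RLE factors, total counts, other filters, the 10 most abundant genes left out and each library left out were alternatives. Scripts were tested on simulated data. Lengths and positions come from GENCODE vM1 (NCBIM37, the assembly of mm9), by symbol, and promoters from RefSeq (GRCm38.p6). Without strand information, overlapping genes are uncertain. Total counts were 12925869 to 16484772 a library. Members and lists were chosen with earlier results of these data known. Values in every library were given for up to 3 members with the highest level per length in each role and for the 3 largest fold changes either way, and the most abundant gene was named in each other list. Further members, such as Col5a1 and Col5a2, were added after their values were seen.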

Additional observations from a re-analysis of the deposited data

How the results depend on the processing

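No matrix gene passed the adjusted threshold under any of the 11 alternatives run, and no gene of the other lists did. The number of all genes past it was 0 in the main test, 10 with total counts only, 7 with no low-count filter, 3 with DESeq2, and 6 to 285 with a library left out (285 without 8-week replicate 1). The members' median log2 fold change ran from 0.02 to 0.21 with a library left out. The ages did not overlap in 8 members (26.7%, and 28.6% of all genes). With a library left out they did not overlap in 16 to 24 members (53.3% to 80.0%, and 54.7% to 79.4% of all genes), since 1 library then stands against 2. Over 330 fold changes of single members, 298 kept their direction. Of the 32 reversals, 28 came with a library left out and 4 in the other alternatives, which refit the same 4 libraries. In all, 19 members reversed at least once. With total counts only, Col5a2 (-0.0455), Col6a1 (-0.0441), Thbs2 (-0.0254) and Mmp2 (-0.0185) changed sign.

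With a library left out, these members changed sign, with log2 fold changes of -0.36 to 0.68 for Col1a1, -0.32 to 0.59 for Col1a2, -0.0928 to 0.65 for Col3a1, -0.0841 to 0.19 for Col5a2, -0.26 to 0.35 for Col6a1, -0.0871 to 0.53 for Col6a2, -0.0254 to 0.23 for Col6a3, -0.0347 to 0.26 for Dcn, -0.33 to 0.25 for Fbln1, -0.28 to 0.54 for Sparc, -0.20 to 0.0532 for Postn, -0.79 to 0.79 for Tnc, -0.32 to 0.58 for Thbs2, -0.43 to 0.23 for Serpinh1, -0.31 to 0.0619 for P4ha1, -0.40 to 0.19 for Adamts2, -0.66 to 0.0596 for Pcolce, -0.0359 to 0.19 for Mmp2 and -0.0387 to 0.34 for Mmp14. The other 11 members kept their sign, 9 positive and 2 negative. The cause was not tested. No paired analysis was possible because the ages share no replicate number. Members such as Eln, Thbs2 and Timp1 had low counts, which limits the precision of their values. Eln and Timp1 still kept their sign, and the largest SE among the members was that of Tnc, at 0.48.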
